A study of Mus musculus with 9 samples.

Results

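Accessible chromatin lying between 1 and 10 kb from the transcription start site (TSS) of a protein-coding gene was examined in the wild-type mouse embryo. The members were chosen by position alone: regions assigned to a RefSeq coding transcript, with a deposited distance between region center and assigned TSS above 1000 bp and at most 10000 bp. They numbered 1126 of 17164 distinct regions (6.56%) and were assigned to 1074 genes. The study profiled open chromatin by ATAC-Seq, which uses Tn5 transposase to place adapters in exposed DNA, in pharyngeal mesoderm and hearts dissected at embryonic day 8.75, at the stage with 6 somites. It asked how this landscape depends on Isl1, a LIM-homeodomain factor, and on Brg1, the ATPase of SWI/SNF remodeling complexes, in cells with Isl1-Cre activity. Of 9 libraries, 3 were wild-type controls, 3 carried the genotype Isl1-/-, and 3 carried Isl1Cre+/- together with Brg1fl/fl. The values used here were 1 list of regions common to the 3 wild-type libraries, in mm9 coordinates, so no genotypes were compared and no value below has a replicate. The list held positions, an assigned gene and a distance, with no height or read count, and sequencing depth was therefore unknown.

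A promoter is the stretch around a TSS where the transcription machinery assembles, and in mammals many promoters are rich in CpG dinucleotides that remain unmethylated. Enhancers bind sequence-specific transcription factors and act on promoters from a distance, often from introns or from the sequence upstream of a gene. CTCF, a zinc-finger protein that organizes chromatin loops together with cohesin, binds both near promoters and far from them. The interval just beyond a promoter can hold proximal enhancers, alternative promoters of the same gene, promoters of neighboring genes and the outer part of a broad promoter domain, and an ATAC-Seq region by itself does not tell these apart. The cardiac progenitors of the second heart field, marked by Isl1, lie in the pharyngeal mesoderm. The dissected tissue also contains endothelium, blood progenitors and, in the pharynx, endoderm. Cell types cannot be told apart in such bulk libraries.

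The members hold different kinds of sequence, and the following windows show them at 7 genes. Each is the central 200 bases of a region that contained no annotated TSS and that was assigned to a gene named by the study or to a cardiac regulator. Genome build NCBIM37, which is the same as mm9, was read from 5′ to 3′. Capitals mark matches on either strand to the letters searched for CTCF (CCA, any 2 bases, AG, any 2 bases, then GGC), TEAD factors (GGAATG), the E-box CAGCTG bound by several basic helix-loop-helix factors, ETS factors (CCGGAAG), Sp and Klf factors (GGGCGG), factors of the GATA family (AGATAA), factors of the T-box family (AGGTGT) and LIM-homeodomain factors such as Isl1 (CTAATG). Such a match is a stretch of letters and was not tested for binding.
Mef2c, chr13:83657179-83657378, plus strand: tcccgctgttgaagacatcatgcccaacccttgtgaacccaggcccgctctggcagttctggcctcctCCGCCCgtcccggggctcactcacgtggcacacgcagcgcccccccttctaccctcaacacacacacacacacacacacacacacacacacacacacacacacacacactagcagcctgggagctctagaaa
Mef2c, chr13:83711258-83711457, plus strand: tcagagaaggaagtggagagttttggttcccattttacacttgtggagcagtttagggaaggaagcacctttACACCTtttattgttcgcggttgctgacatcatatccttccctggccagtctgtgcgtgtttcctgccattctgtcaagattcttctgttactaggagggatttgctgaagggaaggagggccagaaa
Tbx20, chr9:24585563-24585762, plus strand: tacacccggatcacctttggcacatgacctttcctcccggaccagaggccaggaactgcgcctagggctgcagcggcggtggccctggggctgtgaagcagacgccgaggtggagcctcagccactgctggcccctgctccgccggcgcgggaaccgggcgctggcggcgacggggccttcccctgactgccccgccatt
Msx2, chr13:53571415-53571614, plus strand: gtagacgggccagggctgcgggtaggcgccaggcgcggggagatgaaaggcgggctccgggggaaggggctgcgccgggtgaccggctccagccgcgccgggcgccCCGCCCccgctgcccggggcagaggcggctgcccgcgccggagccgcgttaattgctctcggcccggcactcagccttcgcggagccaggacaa
Jag1, chr2:136936073-136936272, plus strand: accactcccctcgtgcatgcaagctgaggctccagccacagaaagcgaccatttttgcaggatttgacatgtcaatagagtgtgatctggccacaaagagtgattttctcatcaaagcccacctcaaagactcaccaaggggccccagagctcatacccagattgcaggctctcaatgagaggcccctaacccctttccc
Plxna2, chr1:196436850-196437049, plus strand: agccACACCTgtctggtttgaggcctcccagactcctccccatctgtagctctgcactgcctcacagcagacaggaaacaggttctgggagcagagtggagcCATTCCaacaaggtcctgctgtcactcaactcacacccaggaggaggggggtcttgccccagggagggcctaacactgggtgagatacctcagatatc
Mybpc3, chr2:90955299-90955498, plus strand: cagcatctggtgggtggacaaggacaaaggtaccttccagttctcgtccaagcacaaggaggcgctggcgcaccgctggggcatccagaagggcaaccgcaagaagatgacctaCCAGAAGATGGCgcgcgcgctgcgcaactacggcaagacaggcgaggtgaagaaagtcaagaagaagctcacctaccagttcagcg
Myh3, chr11:66894696-66894895, plus strand: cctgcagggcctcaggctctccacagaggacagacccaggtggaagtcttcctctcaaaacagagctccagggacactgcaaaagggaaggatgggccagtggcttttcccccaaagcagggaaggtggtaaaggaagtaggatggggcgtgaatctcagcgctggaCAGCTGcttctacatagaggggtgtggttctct

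In the first Mef2c window the capitals were an Sp and Klf match, followed by a run of CA repeats, and in the second a T-box match. The Tbx20 and Jag1 windows had no match to any of the letters marked. The Msx2 window was 77.5% GC and held an Sp and Klf match, whereas the Plxna2 window held a TEAD and a T-box match. In the Myh3 window the capitals were the E-box. The Mybpc3 window held a CTCF match, and it lies in a coding exon of the neighboring gene Sfpi1, which encodes the blood transcription factor PU.1. No LIM-homeodomain match fell in these 8 windows.

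The widest members that did contain an annotated TSS are represented by the central 200 bases of the Pcdh17 and Vcan regions. They are shown because these wide regions covered the assigned TSS although their centers lay more than 1 kb from it.
Pcdh17, chr14:84845368-84845567, plus strand: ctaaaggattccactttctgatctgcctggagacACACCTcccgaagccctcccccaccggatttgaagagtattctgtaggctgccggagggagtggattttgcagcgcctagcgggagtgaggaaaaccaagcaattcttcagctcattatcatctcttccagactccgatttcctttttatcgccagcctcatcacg
Vcan, chr13:89880920-89881119, plus strand: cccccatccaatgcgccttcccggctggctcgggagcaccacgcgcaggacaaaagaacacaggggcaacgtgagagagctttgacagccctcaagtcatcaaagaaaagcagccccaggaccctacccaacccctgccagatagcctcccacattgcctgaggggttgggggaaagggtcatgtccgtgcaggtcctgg

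For the genes of the lists described below, CTCF letters within 150 bp of the region center were found in 4 members, those of Mybpc3 (above), Etv2, Klf1 and Sfrp2. The last 3 are shown as 30 bases around the match. In Klf1 the letters stand on the opposite strand.
Etv2, chr7:31419837-31419866, plus strand: gccattgtcCCAGTAGGTGGCgccactggg
Klf1, chr8:87427145-87427174, plus strand: gctcgcggcGCCTTCTGCTGGtcccacggc
Sfrp2, chr3:83568100-83568129, plus strand: ccctgctccCCAGCAGCGGGCttgccgcgc

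Members close to the TSS were richer in CpG, and more often contained an annotated TSS, than members further away. Between 1 and 2 kb there were 212 members, of which 33.0% contained an annotated TSS, 39.2% were CpG-rich and the median CpG frequency was 4.11 per 100 bp. CpG-rich here means a GC content over 50% and a ratio of observed to expected CpG over 0.6. Between 9 and 10 kb there were 98 members, of which 12.2% contained an annotated TSS and 11.2% were CpG-rich, with a median of 1.69 CpG per 100 bp. The number per kb fell to 100 between 4 and 5 kb and lay between 98 and 121 in the 1-kb steps from there outward. Beyond 10 kb the number of coding regions went on falling, to 81.9 per kb between 10 and 20 kb, 48.4 per kb between 20 and 50 kb and 24.2 per kb between 50 and 100 kb.

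**Figure D1:**
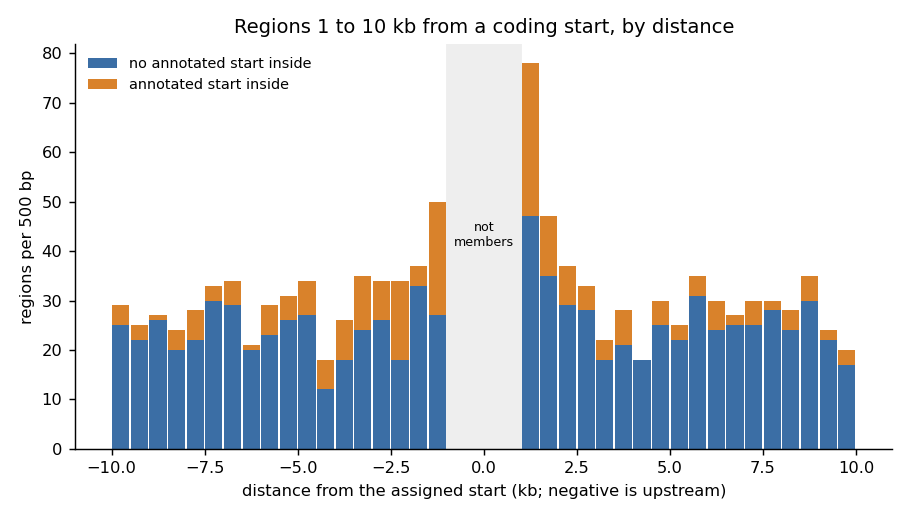
Number of members per 500 bp of distance from the assigned TSS (x axis in kb, negative upstream), split into those that contain an annotated TSS (orange) and those that do not (blue). Counts were highest in the bins next to the 1 kb limit and about level further out, and the orange share was larger near the limit than far from it.

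The members were spread about evenly over both sides of the TSS. Downstream lay 577 members (51.2%, 95% Wilson interval 48.3 to 54.2) and upstream 549. The downstream share was above 50% on 11 chromosomes and below it on 8 (two-sided exact sign test over chromosomes, p = 0.648). Median width was 1027 bp upstream and 1052 bp downstream, and 22.0% and 18.7% contained an annotated TSS. The midpoint lay inside the assigned gene for 72.8% of downstream and 12.4% of upstream members, which largely follows from the definition of the sides.

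In width and base composition the members lay between promoters and more distal regions. Their median width was 1041.5 bp, against 1294 bp for the 8765 coding regions within 1 kb of the TSS and 946 bp for the 3483 coding regions at 10 to 100 kb. Median GC content was 52.1%, against 58.2% and 48.3%. The median CpG frequency was 2.55 per 100 bp, against 5.95 and 1.46. Each of these differences was taken per chromosome, and each had the same sign on all 20 chromosomes (19 autosomes and X), apart from width against the 10 to 100 kb regions. Relative to promoters, members were narrower by 260 ± 82.3 bp, lower in GC by 6.26 ± 1.44 percentage points and lower in CpG by 3.4 ± 0.60 per 100 bp (mean and SD over 20 chromosomes; adjusted p = 2.18e-06 for each, two-sided exact sign test with Benjamini-Hochberg adjustment over 8 tests). Relative to the 10 to 100 kb regions, members were higher in GC by 3.29 ± 1.31 percentage points and in CpG by 1.04 ± 0.44 per 100 bp (exact sign test, adjusted p = 2.18e-06 for each). They were wider by 90.1 ± 76.4 bp, on 18 of 20 chromosomes (exact sign test, adjusted p = 4.02e-04). Chromosomes of 1 list stand in for replicates here and do not measure the spread between embryos. The width difference from the 10 to 100 kb regions passed the test only with members between 1 and 2 kb included: with a lower limit of 2000 bp it was 46.7 bp (exact sign test, adjusted p = 0.115). With only regions that held no annotated start in either class, the differences were 48.0 bp in width (exact sign test, adjusted p = 0.0414) and 0.607 CpG per 100 bp (exact sign test, adjusted p = 4.58e-05).

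**Figure D2:**
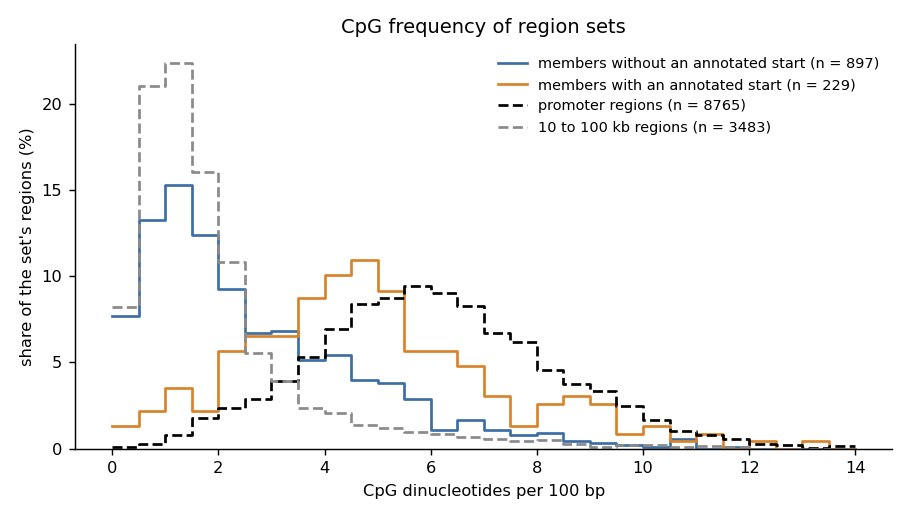
Share of regions (y axis, %) by CpG dinucleotides per 100 bp (x axis) for members with and without an annotated TSS, for coding promoter regions and for coding regions at 10 to 100 kb. Members with a TSS peaked between 4.5 and 5 per 100 bp and overlapped the promoter curve, and members without one peaked between 1 and 1.5, with a longer tail to high values than the 10 to 100 kb regions.

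About 1 in 5 members contained a TSS of the GENCODE annotation although the assigned TSS was more than 1 kb from the center. This was so for 229 members (20.3%, interval 18.1 to 22.8), against 262 of 3483 regions at 10 to 100 kb (7.52%). The share was higher in the members on 20 of 20 chromosomes, by 12.4 ± 6.35 percentage points (exact sign test, adjusted p = 2.18e-06). The distance limits build in part of this difference. A member can reach its assigned TSS, whereas the widest region at 10 to 100 kb was 5416 bp, too narrow to do so. With distances to GENCODE starts the member share was 7.71%, and the share at 10 to 100 kb under those distances is not given here. For promoter regions the share was 97.4%, which their distance limit builds in. In 146 of the 229 a TSS inside carried the symbol of the assigned gene. In the other 83 all starts inside carried other symbols, with a protein-coding transcript in 37. Only 1040 of the 1126 members had a symbol found in GENCODE, so the 83 can include the assigned gene under another name. The Duxbl1 member, for example, held a start named Duxbl. By the deposited distance, 29 members reached across their assigned TSS, and none of their genes had a region centered within 1 kb.

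The widest members were almost all of this kind. Of the 12 widest, 11 contained an annotated TSS, and so did 41 of the 67 members of at least 2000 bp. Pcdh17, a protocadherin gene, had the widest region of the list, 6230 bp centered 2098 bp downstream of its TSS (chr14:84842354-84848583), with 5.25 CpG per 100 bp. Vcan, which encodes the extracellular matrix proteoglycan versican of the endocardial cushions, had 4997 bp at +1097 bp (chr13:89878522-89883518). Gpc6, encoding a glypican, had 4566 bp at +1020 bp (chr14:117323257-117327822). Sp8, a zinc-finger transcription factor gene of limb and brain development, had 4492 bp at +2053 bp (chr12:120084610-120089101). The exception was Tchh, which encodes the hair follicle protein trichohyalin: its region of 4658 bp (chr3:93247275-93251932) was centered +3351 bp from the start in a coding exon, and 19.4% of its 31-mers were found at several genome positions. Whether reads from repeated sequence contributed to that width was not tested.

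In CpG content, members with an annotated TSS lay between promoters and the members without one. Their median was 4.73 CpG per 100 bp, against 5.95 in promoter regions and 2.05 in members without a TSS. CpG-rich were 100 of the 229 with a TSS (43.7%, interval 37.4 to 50.1) and 137 of the 897 without (15.3%, 13.1 to 17.8), against 73.3% of promoter regions and 6.83% of regions at 10 to 100 kb. The share was higher with a TSS on each of the 18 chromosomes that had at least 5 regions of both kinds (difference 28.4 percentage points, two-sided exact sign test, p = 7.63e-06). With a ratio over 0.75 in place of 0.6 the difference was 10.4 points (exact sign test, p = 0.0309), and with distances to GENCODE starts it was 25.4 points and did not pass (exact sign test, p = 0.0703). Median width was 1259 bp with a TSS and 993 bp without. Of the 897 without a TSS, 111 had their midpoint in an exon, 374 in an intron and 412 between genes. The exonic members were the most CpG-rich of the 3, with 35.1% (interval 26.9 to 44.4), against 45 of the 374 intronic (interval 9.12 to 15.7%) and 53 of the 412 intergenic ones (interval 9.97 to 16.4%). These shares were not tested against each other.

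As a share of all members, 33.2% were intronic (interval 30.5 to 36.0), 36.6% intergenic (33.8 to 39.4) and 9.86% exonic (8.25 to 11.7). At 10 to 100 kb the corresponding shares were 38.8%, 50.2% and 3.47%. The exonic share was higher among the members of this list (interval 2.92 to 4.14 at 10 to 100 kb). These intervals cover counting error only. The difference was not tested, nor was its link with distance from the TSS, and no test over samples was available. The midpoint of 70 of the 111 exonic members lay in coding sequence and that of 25 in untranslated sequence. The exon belonged to the assigned gene for 72 of 111, and the intron for 292 of 374. Of the intergenic members, 322 of 412 were upstream of the assigned TSS.

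CpG-rich members without a TSS included regions in coding exons, in introns and between genes. The following examples were picked after their values were seen. Insm2, a neuroendocrine zinc-finger gene with a short coding region, had 11.5 CpG per 100 bp over 1006 bp at +1369 bp (chr12:56700771-56701776). Prdm13, a neural transcription factor gene, had 10.9 at +6635 bp in a coding exon (chr4:21605735-21607215) and 8.24 at -2869 bp between genes (chr4:21615276-21616682). Rasip1, which encodes a Ras-interacting protein needed for blood vessel lumens, had 10.5 at +1401 bp (chr7:52883882-52884735). Neurog2, which drives neurogenesis, had 10.6 at +1087 bp in its coding exon (chr3:127336777-127337523). Tbr1, a T-box gene of the cerebral cortex, had 9.11 at +7570 bp in a coding exon (chr2:61649252-61650909), and Shox2, a homeobox gene of the sinus venosus and pacemaker, had 6.46 at +5071 bp, also in a coding exon (chr3:66777105-66778219). None of these 6 genes had a region within 1 kb of its assigned TSS. The epidermal gene Lor, encoding loricrin, showed 8.19 CpG per 100 bp over 1977 bp at +1858 bp in its coding exon (chr3:91884218-91886194).

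A promoter region here means a region centered within 1 kb of the assigned TSS. Most genes with a member had none, and the same was true of all coding genes. Of 1074 genes, 379 (35.3%, interval 32.5 to 38.2) also had a region within 1 kb of the TSS. As background, 40.6% of 21031 coding genes had such a promoter region and 5.05% had a member, with 1.8% having both. For 527 genes (49.1%) members were the only regions in the list, and 269 genes also had regions at 10 to 100 kb. No matching shares over all coding genes are given for these 2 counts. Genes without a promoter region are not all closed at the start, since 29 members reached across the assigned TSS and 146 held a start of their own gene. A region missing from the list is not evidence of closed chromatin, because a region had to be called in each of the 3 libraries.

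Members were also split by whether their gene had such a promoter region. At genes with one, the 396 members had a median of 1.90 CpG per 100 bp, 13.9% were CpG-rich (interval 10.8 to 17.6) and the median distance from the TSS was 6060 bp. At genes without one, the 730 members had a median of 3.16 CpG per 100 bp, 24.9% were CpG-rich (21.9 to 28.2) and the median distance was 4091.5 bp. Of these 730, 185 held an annotated TSS themselves. The contrast remained among members without an annotated TSS, with 1.75 CpG per 100 bp and 11.1% CpG-rich (n = 352) against 2.40 with 98 of 545 CpG-rich. Distance from the TSS moved with it (medians 6150.5 and 4676 bp), and its part in the contrast was not tested. Where the gene had a promoter region, the gap between it and the member had a median of 5538 bp (quartiles 3848 and 7513 bp) and was under 500 bp for 19 members. The member was narrower than the promoter region in 304 of 396 pairs (76.8%).

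Several members per gene were uncommon. Single members were found at 1025 genes, pairs at 46, and 3 members at Sp8, Etl4 and Nxph1. Around Sp8 they lay at -9546, +2053 and +8684 bp, with 5.25, 6.46 and 3.90 CpG per 100 bp. The 3 members of Nxph1, which encodes the neuronal secreted protein neurexophilin, lay at -1249, +7661 and +8593 bp, the first with an annotated TSS and 6.91 CpG per 100 bp, the others in an intron with 3.63 and 3.23. The Etl4 members were all intronic, at +1715, -1558 and +6557 bp from different transcripts of that gene, and poor in CpG (0.621, 0.646 and 0.373 per 100 bp).

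The distance limits cut through a continuum. Just inside the 1 kb limit were regions of Six5 (-1010 bp, 2671 bp wide, with a TSS inside) and Tshz2 (-1013 bp, 1038 bp wide, between genes), and just outside were regions of Crh (+999 bp, 1600 bp) and Myf6 (+997 bp, 1350 bp), neither with a TSS inside. At 10 kb, Selenow (+9974 bp, 650 bp) and Fam83a (-9968 bp, 1313 bp) were just inside, and Tbc1d2b (+10005 bp, 1206 bp) and Slc38a2 (-10008 bp, 1539 bp) just outside.

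Sequence at the centers was compared with sequence nearby, in members without an annotated TSS. Letters of 19 motifs were searched on both strands in the central 300 bases of 883 members and in 300 bases 3 kb to either side. Of the 19, 5 were more frequent at the center, 2 were less frequent and 12 did not pass the test (two-sided exact sign test over 20 chromosomes, Benjamini-Hochberg adjustment over 19 motifs). Base composition moved with this comparison: median GC content was 54.3% at the center and 44.5% in the flanks, and median CpG frequency was 2.33 and 0.833 per 100 bp.

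The CTCF letters stood in 68 of 883 central windows (7.70%, interval 6.12 to 9.65) and in 1.87% of flanking windows, with a higher center on 17 chromosomes and a lower one on 1 (exact sign test, adjusted p = 9.18e-04). Within 100 bp of the center, CTCF matches were 4.03 times as dense as at 1000 to 1500 bp. Members with the letters, 71 in all including those without flanks, had a median width of 831 bp, against 1005 bp for the other 826, and 6 of the 71 were CpG-rich. In all listed regions the central share was 5.10%, in promoters 2.85% and in regions at 10 to 100 kb 9.07%. Leaving out CpG-rich members kept the center above the flanks by 6.56 percentage points (exact sign test, adjusted p = 7.25e-04). Among the 226 members without a TSS whose center and flanks differed by at most 5 percentage points of GC, the difference was 4.42 points and did not pass the test (exact sign test, adjusted p = 0.720). Among members at least as wide as the median of the list it was 1.38 points, and the call was lost (exact sign test, adjusted p = 1).

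The E-box CAGCTG, bound by Tcf21 and the myogenic factors, stood in 22.9% of centers (20.2 to 25.8) and 12.1% of flanks, higher on 18 of 20 chromosomes (exact sign test, adjusted p = 1.91e-03). The difference of 10.8 percentage points was 10.9 in the wider members (exact sign test, adjusted p = 0.0983) and 7.08 with similar GC (exact sign test, adjusted p = 0.450), and neither passed. The related letters CATCTG, in 22.1% and 20.7%, and CAGGTG, in 17.3% and 20.6%, did not pass (exact sign test, adjusted p = 0.294 and 0.227). With similar GC at center and flanks the CAGGTG difference was -12.8 points and did pass (exact sign test, adjusted p = 9.28e-03). The TEAD letters, bound by the effectors of Hippo signaling, stood in 19.9% of centers (17.4 to 22.7) and 14.8% of flanks, higher on 16 of 20 chromosomes (exact sign test, adjusted p = 0.0321). That call was lost under 5 alternatives, in which the difference was 3.96 to 7.74 percentage points, against 5.10. Central shares over all listed regions were 19.5% for CAGCTG and 15.4% for TEAD.

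Letters of the cardiac factors were not more frequent at the center. GATA letters stood in 9.85% of centers and 14.6% of flanks (exact sign test, adjusted p = 8.93e-03), and T-box letters in 10.2% and 15.7% (exact sign test, adjusted p = 0.0140). With center and flank GC within 5 percentage points the GATA difference changed sign, from -4.70 to 5.53 percentage points, and neither call passed. The GATA call was lost under 5 further alternatives (differences of -9.31 to -2.49 points) and the T-box call under 2 (-5.69 and -4.83 points). The letters of LIM-homeodomain factors stood in 7.70% and 10.2% (exact sign test, adjusted p = 0.294), those of MEF2 (CTA, any 4 bases, then TAG) in 3.28% and 5.27% (exact sign test, adjusted p = 0.0835) and those of Nkx2 factors (TNAAGTG) in 11.4% and 16.3% (exact sign test, adjusted p = 0.141). With GENCODE distances the MEF2 and Nkx2 differences, -1.83 and -4.05 points, passed (exact sign test, adjusted p = 0.0332 and 2.31e-03). In the 3483 regions at 10 to 100 kb, GATA letters stood in 14.6% of central windows and LIM-homeodomain letters in 10.9%.

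Promoter-type letters were also found. Sp and Klf letters stood in 29.9% of centers (27.0 to 33.0) and 2.94% of flanks, higher on 20 of 20 chromosomes (exact sign test, adjusted p = 3.62e-05). The difference still passed with center and flank GC within 5 percentage points (13.9 points, exact sign test, adjusted p = 9.28e-03). That subset was matched on GC and not on CpG frequency, and the letters GGGCGG contain a CpG. Sp and Klf letters stood in 69.5% of promoter regions and 60.7% of members with a TSS. ETS letters stood in 4.98% of centers and 1.36% of flanks (exact sign test, adjusted p = 7.25e-04), but without CpG-rich members the difference was 1.67 points and no longer passed (exact sign test, adjusted p = 0.182), and with similar GC at center and flanks it was -0.22 points. Members with ETS letters had a median of 4.32 CpG per 100 bp, and 20 of these 44 were CpG-rich.

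**Figure D3:**
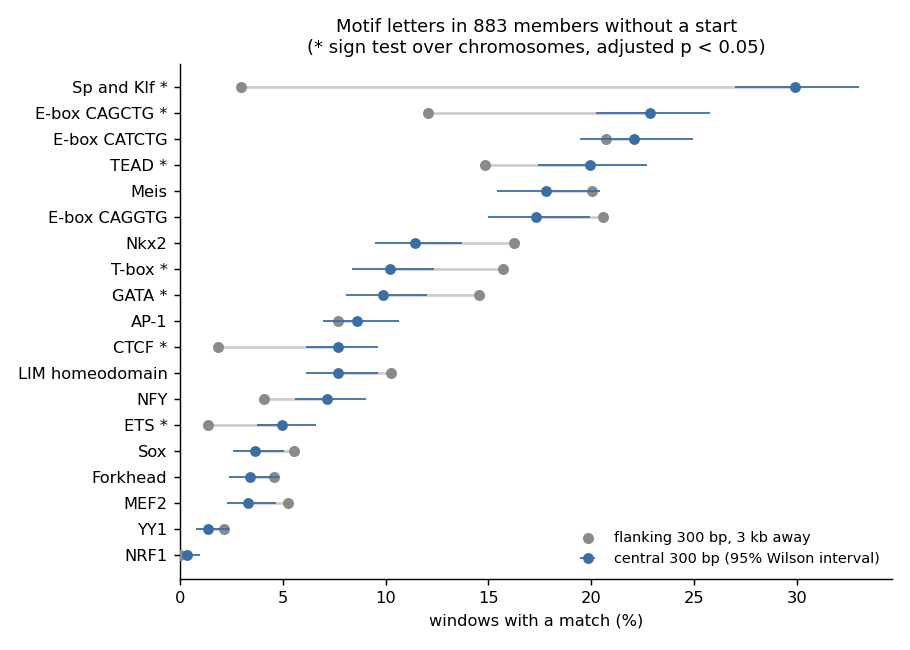
Share of windows with a match (x axis, %) for 19 motifs in 883 members without an annotated TSS, for the central 300 bases (blue, with 95% Wilson intervals) and for flanking windows 3 kb away (gray). Asterisks mark the 7 motifs that passed the sign test, and the widest separation was that of the Sp and Klf letters, 29.9% against 2.94%.

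**Figure D4:**
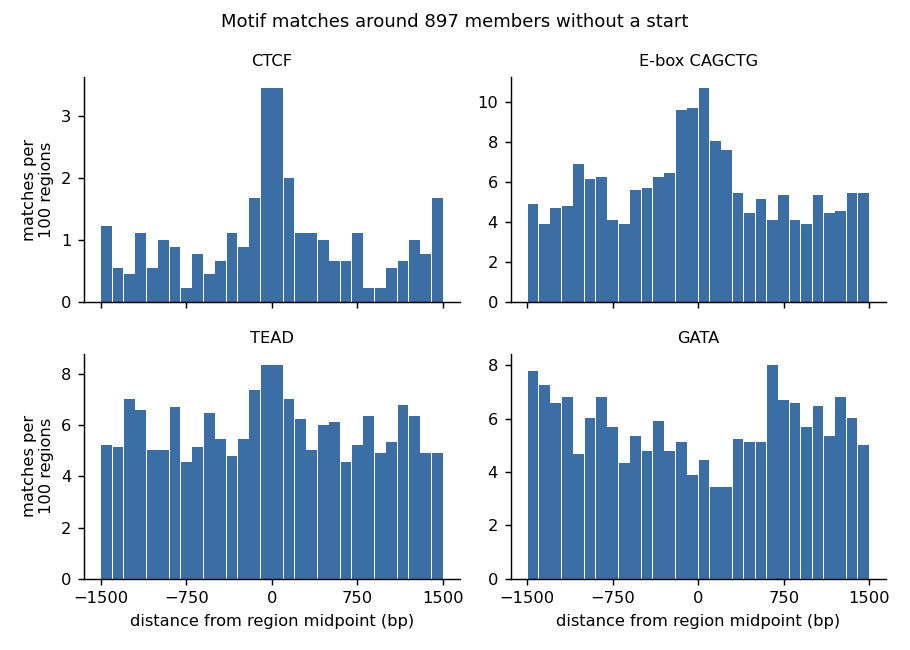
Matches per 100 regions in 100-bp bins (y axis) by distance from the region midpoint (x axis, bp) for CTCF, the E-box CAGCTG, TEAD and GATA letters in 897 members without an annotated TSS. CTCF and CAGCTG matches peaked at the midpoint, the TEAD peak was low, and GATA matches were sparser near it than further out.

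Gene lists were used to ask which parts of the developmental program had a member. Over 18 lists with 378 different genes, 51 genes had at least 1 (13.5%, interval 10.4 to 17.3), against the background of 5.05% of coding genes. The lists contain developmental regulators but also housekeeping genes, of which 3 of 16 had a member (18.8%, interval 6.59 to 43.0). The share was not tested. Their 54 regions were 707 to 3149 bp wide, 25 lay upstream and 29 downstream, 10 contained a TSS, and 19 were CpG-rich.

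Regulators of the second heart field and pharyngeal arches had the highest share of the 18 lists, with 9 of 24 genes (37.5%, interval 21.2 to 57.3). The COUP-TF gene Nr2f2, active in atria and veins, had 2, a region of 1557 bp at -1220 bp with 10.9 CpG per 100 bp in an intron of a longer transcript (chr7:77505921-77507477) and 1 of 1474 bp at +9477 bp beyond the gene (chr7:77495266-77496739). Its relative Nr2f1 had 1573 bp at -4857 bp (chr13:78342205-78343777), in an intron of the neighboring transcript A830082K12Rik. Of the Ebf family of mesoderm and neural regulators, Ebf1 had a member at -6901 bp, Ebf2 at +1289 bp and Ebf3 at +4511 bp, the last with 8.47 CpG per 100 bp. Prrx1, a homeobox gene of mesenchyme, had 2986 bp that reached across its TSS (chr1:165241235-165244220), and Dlx5, of the pharyngeal arches, had 1091 bp at +3249 bp in an intron (chr6:6828274-6829364). A promoter region was present at 2 of these 9 genes.

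Among 28 cardiac regulators, 3 had members, namely Mef2c, Tbx20 and Meis1 (10.7%, interval 3.71 to 27.2), and each also had a promoter region. Mef2c, a MADS-box gene required in the second heart field, had a region of 1346 bp at -5376 bp (chr13:83656607-83657952) and 1 of 772 bp at -1407 bp (chr13:83710973-83711744). Both lie in introns of longer Mef2c transcripts, and the nearest GENCODE TSS of the second is 47382 bp away. Tbx20, a T-box repressor and activator of chamber development, had 948 bp at -6916 bp, between genes, with 5.17 CpG per 100 bp (chr9:24585190-24586137). Meis1, a cofactor of Hox and Pbx proteins, had 1060 bp at -8547 bp (chr11:18926990-18928049).

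Of 37 genes named by the study, 8 had members (21.6%, interval 11.4 to 37.2). The study named these genes in part from its own data on such embryos, so their count is not independent evidence. Besides Mef2c and Tbx20 they were Msx2, Jag1, Plxna2, Mybpc3, Myh3 and Arid1a. The study gives Myh3 as a contrast, a gene without Isl1 binding whose ATAC-Seq signal did not change in the mutants. Msx2, a homeobox gene downstream of BMP signals, had 866 bp at -3366 bp with 6.70 CpG per 100 bp (chr13:53571083-53571948). Jag1, the Notch ligand of the outflow tract, had 1521 bp at +6083 bp in an intron (chr2:136935413-136936933), and Plxna2, a semaphorin receptor, had 946 bp at -9073 bp with 0.529 CpG per 100 bp (chr1:196436478-196437423). The member of Arid1a, a SWI/SNF subunit of the Brg1 complex, was 1525 bp at -3445 bp and contained another TSS of Arid1a (chr4:133312209-133313733).

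Of 28 contractile and calcium genes, 2 had members (7.14%, interval 1.98 to 22.6), a share near the background of 5.05%, and both regions lay at neighboring features. The Mybpc3 region of 958 bp at -2902 bp (chr2:90954921-90955878) was in the coding exon of Sfpi1. The Tnni3 region of 810 bp at -4162 bp (chr7:4477803-4478612) contained the TSS of Gm15873. Neither Tnni3, which encodes cardiac troponin I, nor Mybpc3, which encodes cardiac myosin-binding protein C, had a promoter region. The embryonic skeletal myosin gene Myh3 had 896 bp at +2994 bp in an intron (chr11:66894349-66895244), likewise without a promoter region.

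The signaling genes with members included ligand, receptor and coactivator genes as well as antagonists and feedback genes. The shares below stand beside the background of 5.05% of coding genes and were not tested. In the Wnt list 3 of 39 had members (7.69%, near the background): the antagonists Dkk1 (-4739 bp, chr19:30627918-30629532) and Sfrp2 (-2043 bp, chr3:83567627-83568774), and Rspo3, which amplifies Wnt signals, with 2597 bp at +2070 bp (chr10:29252305-29254901). In the Notch list 4 of 22 did (18.2%): Jag1, the coactivators Maml2 (-9720 bp) and Maml3 (+2545 bp, 2096 bp wide) and the feedback gene Nrarp (+5348 bp). In the BMP and TGF-beta list 5 of 35 did (14.3%). The ligand genes Bmp2 and Bmp5 had members at +2441 bp, in a coding exon (chr2:133379609-133381063), and at +5648 bp, in an intron (chr9:75628291-75629350). The receptor gene Bmpr1b had 1 at -5181 bp, and Id2 and Id3, targets of BMP that block basic helix-loop-helix factors, had 1 each at -3140 and -3239 bp. The retinoic acid list had 2 of 18 (11.1%), the receptor gene Rarb (-7958 bp, from a TSS that GENCODE does not place there, the nearest being 271422 bp away) and Dhrs3, which reduces retinal, with 2991 bp across its TSS. No member was assigned to the 20 FGF or 14 Hedgehog pathway genes, of which 12 and 6 respectively had promoter regions. With these numbers a share of up to 16.1% and 21.5% lay within the 95% interval, and so did the background share.

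**Figure D5:**
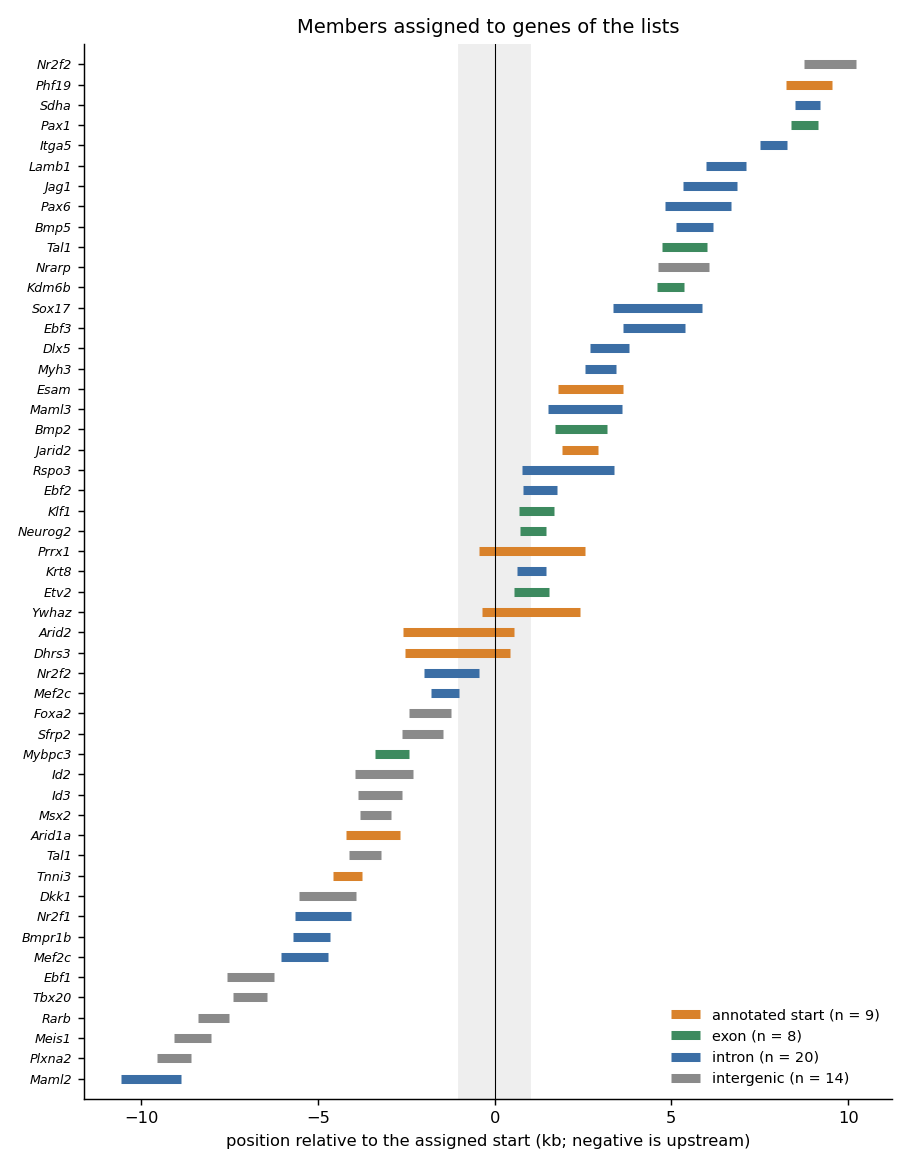
Extent of 51 of the 54 members assigned to list genes, placed by its deposited distance from the assigned TSS (x axis in kb, negative upstream) and colored by what lies there. The gray band is the excluded interval within 1 kb, and 4 of the 9 members drawn with an annotated TSS (Arid2, Dhrs3, Ywhaz and Prrx1) reach across the assigned TSS.

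Genes of other cell types in the dissected tissue also had members. Of 20 endothelial and endocardial genes, 4 had 5 members (20% of the genes, interval 8.07 to 41.6). The background was 5.05% of coding genes, and the share was not tested. None of the 4 genes had a promoter region, which only 4 of the 20 listed genes had. Etv2, which starts the hemangiogenic program, had 1009 bp at +1045 bp in a coding exon (chr7:31419322-31420330), the CTCF letters of which are shown above. Tal1, the hematoendothelial helix-loop-helix gene, had 891 bp at -3674 bp (chr4:114724912-114725802) and 1271 bp at +5380 bp in a coding exon (chr4:114735161-114736431). Sox17, of endoderm and arterial endothelium, had 2505 bp at +4609 bp in an intron (chr1:4481574-4484078), and Esam, an endothelial junction gene, had 1822 bp at +2711 bp around an internal TSS (chr9:37337475-37339296). Klf1, the erythroid factor, was the only one of 15 blood genes (6.67%, near the background), with 987 bp at +1190 bp in a coding exon and 8.71 CpG per 100 bp (chr8:87426524-87427510). Of 14 pharyngeal endoderm and ectoderm genes, 4 had members (28.6%), namely Foxa2 (-1842 bp), Pax1 (+8769 bp), Krt8 (+1050 bp) and Sox17. The neural genes Pax6 (+5752 bp) and Neurog2 were 2 of 20 (10.0%). Among markers chosen to define the cell types, members were found at 0 of 6 cardiac, 0 of 3 second heart field, 0 of 4 endothelial, 1 of 3 blood, 1 of 3 neural and 2 of 3 pharyngeal endoderm genes. With a member at only 5.05% of coding genes, so few markers cannot tell the tissue either way. Over all listed regions a region was found at 1 of 6 cardiac, 2 of 3 second heart field, 3 of 4 endothelial, 1 of 3 blood, 2 of 3 neural and 3 of 3 pharyngeal endoderm markers.

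SWI/SNF subunits had 2 of 25 (8%, interval 2.22 to 25.0), near the background of 5.05% of coding genes. These were Arid1a and Arid2, and both members contained a TSS of their gene, with 3149 bp at Arid2 (chr15:96115351-96118499). Polycomb and Trithorax genes had 3 of 23 (13.0%), Jarid2 (+2421 bp) and Phf19 (+8887 bp), each around an internal TSS, and Kdm6b, an H3K27 demethylase gene (+4968 bp, in untranslated sequence of an exon). Cytoskeleton and adhesion genes had 2 of 20 (10.0%), Itga5 (+7894 bp) and Lamb1 (+6546 bp), both intronic. Housekeeping genes had 3 of 16 (18.8%), including Sdha (+8860 bp) and Ywhaz (+1025 bp).

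The assigned gene is 1 reading of each member. For 471 of the 1126 (41.8%, interval 39.0 to 44.7), some annotated TSS was over 100 bp nearer to the midpoint than the assigned TSS. Of the 1040 members whose gene symbol is in GENCODE, 146 lay within 1 kb of a GENCODE TSS of that same gene. With distances to GENCODE starts in place of the deposited ones, the same limits gave 1141 regions, of which 7.71% contained an annotated TSS. The members were spread over 20 chromosomes, 23 to 118 on each, and made up 4.72 to 10.7% of the regions of an autosome. No 31-mer that occurs elsewhere in the genome was found in 630 of the 1126 members, and in 23 more than 50% of 31-mers were of that kind, among them Duxbl1, Duxbl2, Duxbl3, Gm4070, Olfr247 and Ear1, which belong to families of near-identical copies and are uncertain.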

How the data were processed

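The authors made ATAC-Seq libraries from pharyngeal mesoderm and hearts and deposited, for the wild-type control, 1 list of regions with other values in bp (start, end and distance from the assigned TSS, with a transcript and a symbol). Per the paper's methods, reads were mapped to mm9 with bowtie2, filtered with samtools, freed of duplicates with Picard 1.136 and passed to MACS14 library by library, with a p-value threshold and a fixed shift. Blacklisted peaks were removed, and bedtools 2.15 kept peaks common to the 3 replicates. No Tn5 offset is stated, so region edges do not mark insertions and the tag extension adds to width. The gene assigner is stated for ChIP-Seq only. No column of per-sample values was left unmapped.

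Identical rows of 17432 were counted once (17164 regions). NCBIM37 (the same build as mm9) and its GENCODE vM1 annotation gave sequence, starts, exons and introns, the gene table of GRCm38.p6 gave names and gene types, and 2 members were not in it. A region holding a GENCODE start was classed as such, the others by midpoint. Comparisons used two-sided exact sign tests over chromosomes with at least 5 regions of both kinds and a threshold of 0.05, checked on simulated data. Intervals are 95% Wilson intervals and cover counting error only. Flanking windows that touched a listed region or lay within 1000 bp of an annotated start were left out, which removed 14 members. Members and gene lists were chosen with earlier results of these data known. Genes named were the widest members, those with 3 members, list genes and those at the limits, and others are stated as picked after their values were seen. The results of 3 genes that this rule would name are not reported here, and the genes remain in the counts. Alternatives were all rows as deposited, wider regions only, a lower limit of 2000 bp, GENCODE distances, autosomes only, 200-base windows, flanks 5 kb away, a CpG ratio over 0.75, starts within 500 bp and regions without a start. Those without repeated sequence, with similar GC at center and flanks and without CpG-rich members were added after the data had been seen. Python 3.11.15, numpy 2.4.6, pandas 2.3.3, scipy 1.17.1, pysam 0.24.0, numba 0.67.0 and matplotlib 3.10.9 were used. The mutant libraries were not analysed here.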

Additional observations from a re-analysis of the deposited data

How the results depend on the processing

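Of the comparisons between groups of regions, 76 of 93 alternatives left the sign and the call as they were, or moved a share or count by less than its interval or 1.5 times. When narrower regions, under the list's median width, were dropped, 444 members remained, the width difference from promoters was -53.8 bp and no longer passed (adjusted p = 0.115, exact sign test), 33.3% held an annotated TSS, 24.9% of genes had a promoter region, 25.9% were intronic, 2 motifs passed and 28 list genes had a member. With a lower limit of 2000 bp, the width difference from the 10 to 100 kb regions was 46.7 bp (adjusted p = 0.115, exact sign test), 17.4% held a TSS and 39.3% of genes had a promoter region. With GENCODE distances, which move regions at an own start out of the members, 7.71% held a TSS, the CpG-rich difference was 25.4 points (p = 0.0703, exact sign test), 42.8% of genes had a promoter region, 43.8% were intronic and 11 motifs passed. Counting starts within 500 bp gave 23.7% with a TSS. With center and flank GC within 5 points, 3 motifs passed, on 226 members, and 2 differences reversed, GATA to 5.53 and ETS to -0.22 points. By exact sign tests, the CTCF call was lost for wider regions (adjusted p = 1) and similar GC (0.720), and the CAGCTG call likewise (0.0983 and 0.450). The GATA call was also lost for wider regions (0.0808), 200-base windows (0.488), flanks 5 kb away (0.0521), without repeated sequence (0.0733) and without CpG-rich members (0.385), and the T-box call for wider regions (0.0838), similar GC (0.570) and without CpG-rich members (0.0608). The TEAD call was lost for wider regions (adjusted p = 0.121), autosomes only (0.0521), 200-base windows (0.274), flanks 5 kb away (0.121) and similar GC (0.365), all by exact sign tests. Beyond what the alternatives' construction shows (fewer regions, other limits), the cause was not tested.

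No paired analysis was possible because the 3 wild-type libraries enter as 1 common list without a replicate number, and for the same reason leaving out a library was not an option. Depth is unknown, and regions below the calling threshold are not listed.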
